A study of Mus musculus with 9 samples.

Results

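Genes of the Wnt signalling pathway were followed through embryoid body differentiation of mouse embryonic stem cells. They were chosen by gene symbol alone: the Wnt ligands, the Frizzled receptors with Lrp5 and Lrp6, the secreted Sfrp and Dkk antagonists, the R-spondins with Lgr4, Lgr5, Rnf43 and Znrf3, the 4 TCF/LEF factors, and the feedback genes Axin2, Nkd1 and Notum. This gave 54 of the 54232 genes in the deposited count table: 19 ligands, 12 receptors, 8 antagonists, 8 genes of the R-spondin branch, 4 nuclear factors and 3 feedback genes. Polyadenylated RNA was sequenced from wild-type (WT) cells in 3 libraries each of EBD2, EBD5 and EBD6, the 3 groups. All libraries carry the cell type label embryonic stem cells, no transgene or agent is given, and the labels do not say what the number in a group name stands for. EBD2 replicates 1 and 2, and EBD6 replicates 2 and 3, gave chi-square tests of counts that found no difference. Each pair was counted as 1 sample, which left n = 2 for EBD2, 3 for EBD5 and 2 for EBD6. No label calls the replicates separate cultures. The p-values thus reflect the spread among these samples alone, and that spread may be technical.

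Wnt proteins are secreted, lipid-modified ligands. In the canonical branch a Wnt binds a Frizzled receptor together with Lrp5 or Lrp6, the complex that degrades beta-catenin is inhibited, and beta-catenin enters the nucleus to act with TCF/LEF factors. Sfrp proteins bind Wnts outside the cell and Dkk1 binds Lrp5 and Lrp6, whereas R-spondins, through Lgr receptors, take the ubiquitin ligases Rnf43 and Znrf3 off the Frizzleds. Axin2, Nkd1 and Notum are induced by the pathway in many tissues and dampen it. In the early mouse embryo Wnt signalling is needed for primitive streak formation, and the anterior visceral endoderm secretes antagonists against it.

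Libraries held 5453399 to 11703388 counts. The EBD5 libraries stood apart in RNA classes: ribosomal RNA took 0.0165% to 0.0207% of counts in EBD2, 0.726% to 0.811% in EBD5 and 0.0192% to 0.0247% in EBD6. Mouse pluripotency markers (7 genes) summed to 1528 to 1713 CPM in EBD2, 1103 to 1183 CPM in EBD5 and 1024 to 1162 CPM in EBD6, where CPM is the read count scaled to library size (TMM). The 8 visceral endoderm markers summed to 14.3 to 15.4 CPM in EBD2, with Apoa4 at 0, 1622 to 1645 CPM in EBD5 and 893 to 933 CPM in EBD6. The libraries of EBD5 and EBD6, labelled embryonic stem cells, thus held endoderm marker RNA beside that of pluripotency genes. In bulk samples fewer cells of a type and less RNA per cell cannot be told apart. The part of RNA quality and of the other marked cell types in the results was not tested.

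Of the 54 genes, 41 passed the filter on low counts and were tested, among 16168 genes in all. The 13 that did not pass were the ligands Wnt1, Wnt2, Wnt3a, Wnt7a, Wnt8b, Wnt9b, Wnt10a, Wnt10b and Wnt16, the antagonists Dkk2 and Dkk4, and the R-spondins Rspo2 and Rspo4. None of the 13 exceeded 1.77 CPM in any library. Calls are adjusted p-values under 0.05 by edgeR's quasi-likelihood test with Benjamini-Hochberg adjustment over all tested genes, and ± after a log2 fold change is its SE.

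In EBD5 against EBD2 3 of the 6 tested antagonists and 4 of the 6 tested R-spondin branch genes (3 of the 6 with DESeq2) were higher. The 3 feedback genes and 3 of the 4 TCF/LEF genes were lower, Tcf7l1 not so once GC content was taken into account. In this comparison 17 of the 41 tested genes were higher and 14 lower (41.5% and 34.1%), where 34.9% and 35.1% of all tested genes, 70.0% together, were called in these directions. In EBD6 against EBD5 all 10 tested ligands (5 of the 10 with DESeq2) and all 3 feedback genes were higher, Wnt9a and Wnt11 not so once GC content was taken into account. There 4 of the 6 tested antagonists were lower. In all, 24 genes were higher and 8 lower (58.5% and 19.5%), against 36.9% and 33.3% of all tested genes, 70.2% together. In EBD6 against EBD2, where EBD5 enters only through the shared filter, scaling and estimate of the spread, 24 were higher and 8 lower, against 33.8% and 32.3%, 66.1% together. A gene that passed the filter only through the group where it is high had to differ, so the shares among tested genes are given as a description.

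The median log2 fold change of the 41 genes was 0.02 in EBD5 against EBD2, 0.54 in EBD6 against EBD5 and 0.69 in EBD6 against EBD2, and that of all tested genes was -0.01, 0.04 and 0.01. Fold changes followed the GC content of genes in these libraries: across 13752 protein-coding genes Spearman's rho with the log2 fold change was -0.37, 0.56 and 0.17 in the 3 comparisons. The tested ligands had a median exon GC content of 56.5%, against 49.5% over all tested genes. A GC-adjusted log2 fold change, from which the median of genes of like GC content and length was taken off, is therefore also given wherever that changes the direction or moves the fold by more than 1.5 times for a called difference that is discussed.

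The summed level of all 19 Wnt ligand genes, per transcript length (TPM), was 35.2 TPM in EBD2, 43.0 TPM in EBD5 and 141 TPM in EBD6. TPM carries no TMM scaling here, and relative to CPM it ran lower in EBD5. Lgr4, for one, had 145, 169 and 152 CPM but 109, 106 and 115 TPM in EBD2, EBD5 and EBD6. Small differences between the TPM sum of EBD5 and that of another group need not hold on the CPM scale. The leading ligand differed between the groups. In EBD2 it was Wnt8a with 16.4 TPM, or 46.6% of the sum, in EBD5 Wnt9a with 10.3 TPM, and in EBD6 Wnt7b with 29.8 TPM, or 21.1% of the sum. Ligand genes with a mean of at least 1 TPM numbered 6 in EBD2, 8 in EBD5 and 14 in EBD6, and 5 ligand genes had no count at all in EBD2, 3 in EBD5 and 0 in EBD6. The groups differ in depth, with 17156720 counts in EBD2, 17873741 in EBD5 and 27603021 in EBD6, which bears on such zero counts.

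Wnt8a, a ligand of the posterior epiblast and early streak in the mouse, was the one tested ligand that was lower in EBD5 than in EBD2. It had 5.96, 5.90 and 7.09 CPM in the EBD2 libraries, 0.548, 0.511 and 0 CPM in EBD5, and 1.06, 0.906 and 1.53 CPM in EBD6. Every EBD2 library lay above every library of EBD5 and EBD6. The log2 fold change was -4.12 ± 0.46 in EBD5 against EBD2 (edgeR adjusted p = 1.39e-05) and -2.42 ± 0.36 in EBD6 against EBD2 (edgeR adjusted p = 0.000135). EBD6 exceeded EBD5 by 1.70 ± 0.58 on the same scale (edgeR adjusted p = 0.0218, GC-adjusted 1.02). That last call was lost without EBD5 replicate 3 (log2 fold change 1.16, edgeR adjusted p = 0.0575), without EBD6 replicate 3 (1.39, edgeR adjusted p = 0.0743) and with DESeq2 (adjusted p = 0.0667).

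Wnt7b (ENSMUSG00000022382, chromosome 15, 85535437 to 85582473, minus strand, mm10), a ligand known from the mouse placenta and lung, had the highest level of any ligand in EBD6. It had 0.170, 0.819 and 0.177 CPM in EBD2, 6.76, 6.64 and 6.72 CPM in EBD5, and 28.9, 36.3 and 36.0 CPM in EBD6. The 3 groups did not overlap, with EBD6 highest. The EBD5 samples averaged 6.70 ± 0.0615 CPM (SD, n = 3) and the EBD2 samples 0.336 ± 0.224 CPM (SD, n = 2), a log2 fold change of 4.02 ± 0.35 (edgeR adjusted p = 1.93e-06), or 5.15 without EBD2 replicate 2. EBD6 averaged 32.5 ± 5.11 CPM (SD, n = 2), 4.99-fold above EBD5 (log2 fold change 2.32 ± 0.15, edgeR adjusted p = 3.05e-07, GC-adjusted 1.22). Against EBD2 it was 6.34 ± 0.27 on the log2 scale (edgeR adjusted p = 9.11e-09), or 7.46 without EBD2 replicate 2.

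Wnt11, a ligand tied to cell movement in the non-canonical branch, was all but uncounted in EBD2, with 2 counts over the group. Its levels were 0.170, 0.164 and 0 CPM in EBD2, 10.8, 9.02 and 10.7 CPM in EBD5, and 14.7, 17.5 and 15.5 CPM in EBD6. Every library of EBD5 and EBD6 lay far above EBD2, at a ratio of 89.4 in EBD5 (95% counting interval 24.4 to 744) and 142 in EBD6 (39.1 to 1175). Such intervals cover counting error only. EBD6 was 1.57-fold above EBD5 (log2 fold change 0.65 ± 0.16, edgeR adjusted p = 0.0038), but the GC-adjusted value was -0.04 and DESeq2 made no call (adjusted p = 0.0565).

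Wnt6, whose protein acts in epithelial tissues, was low in EBD2 and EBD5 and high in EBD6 alone. It had 1.02, 1.31 and 0.177 CPM in EBD2, 0.183, 0.170 and 0.384 CPM in EBD5, and 7.10, 10.5 and 10.04 CPM in EBD6. EBD2 and EBD5 libraries overlapped, and every EBD6 library lay above both. Wnt6 had a log2 fold change of 5.16 ± 0.50 in EBD6 against EBD5 (edgeR adjusted p = 4.34e-06, GC-adjusted 4.15) and 3.42 ± 0.41 in EBD6 against EBD2 (edgeR adjusted p = 2.56e-05). For EBD5 against EBD2 it was -1.74 ± 0.81 (edgeR adjusted p = 0.0741), and that difference passed the threshold without EBD2 replicate 3 (edgeR adjusted p = 0.0132).

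Wnt3, the ligand required for the primitive streak in the mouse, and Wnt4, which acts in kidney and gonad formation, were higher in EBD5 than in EBD2 and higher again in EBD6. Wnt3 had 0.511, 0.655 and 0.354 CPM in EBD2, 4.57, 4.60 and 2.88 CPM in EBD5, and 6.39, 7.34 and 7.07 CPM in EBD6. Wnt4 had 0.511, 0.328 and 0.177 CPM in EBD2, 2.19, 2.21 and 2.49 CPM in EBD5, and 7.10, 10.1 and 9.40 CPM in EBD6. For neither gene did the groups overlap. Wnt3 was 7.67-fold higher in EBD5 than in EBD2 (log2 fold change 2.94 ± 0.39, edgeR adjusted p = 4.72e-05) and 1.73-fold higher in EBD6 than in EBD5 (edgeR adjusted p = 0.0111, DESeq2 adjusted p = 0.132). Wnt4 was 6.48-fold higher in EBD5 than in EBD2 (log2 fold change 2.7 ± 0.46, edgeR adjusted p = 0.000304) and 3.82-fold higher in EBD6 than in EBD5 (1.93 ± 0.25, edgeR adjusted p = 3.41e-05, GC-adjusted 1.24).

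Wnt5a and Wnt5b, a closely related pair known mainly for the non-canonical branch, were called higher in EBD6 than in EBD5 or EBD2 and were not called in EBD5 against EBD2. Wnt5a had 13.7, 14.8 and 12.8 CPM in EBD6, against 3.47, 2.55 and 4.61 CPM in EBD5 (log2 fold change 1.98 ± 0.21, edgeR adjusted p = 8.28e-06). Wnt5b had 10.3, 11.8 and 12.2 CPM in EBD6, against 3.65, 4.26 and 4.22 CPM in EBD5 (1.5 ± 0.21, edgeR adjusted p = 6.04e-05, GC-adjusted 0.49). In both genes the EBD6 libraries lay above all others. In EBD5 against EBD2, Wnt5a differed by 0.67 ± 0.29 on the log2 scale (edgeR adjusted p = 0.0565) and Wnt5b by -0.04 ± 0.25 (edgeR adjusted p = 0.903). The Wnt5a difference passed the threshold without EBD5 replicate 2 (edgeR adjusted p = 0.0247).

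Wnt9a, known from joint formation in the mouse, stood at 4.26, 4.75 and 4.25 CPM in EBD2, 9.32, 8.17 and 10.4 CPM in EBD5, and 10.6, 13.1 and 13.9 CPM in EBD6. It was 2.07-fold higher in EBD5 than in EBD2 (log2 fold change 1.05 ± 0.20, edgeR adjusted p = 0.000721). Its 1.36-fold higher level in EBD6 than in EBD5 (0.45 ± 0.17, edgeR adjusted p = 0.031) turned to -0.15 after GC adjustment. That call was also lost without EBD5 replicate 1 (edgeR adjusted p = 0.0972) or replicate 2 (edgeR adjusted p = 0.13), and with DESeq2 (adjusted p = 0.25). Wnt2b, a ligand of lung formation in the mouse and at most 2.89 CPM in any library here, was 2.26-fold higher in EBD6 than in EBD5 (edgeR adjusted p = 0.0114) and 1.87-fold higher than in EBD2 (edgeR adjusted p = 0.0417). Both Wnt2b calls were lost with DESeq2 (adjusted p = 0.15 and 0.331). Without EBD5 replicate 1 the difference from EBD5 was not called (edgeR adjusted p = 0.0635, GC-adjusted log2 value over all samples 0.49). That from EBD2 was lost without EBD2 replicate 2 or 3, EBD5 replicate 1 or EBD6 replicate 1 or 3, with edgeR adjusted p between 0.0511 and 0.141. Among the ligands too low to test, Wnt1 had no count in EBD2 or EBD5 and 25 in EBD6, and Wnt3a had 2, 0 and 26 counts over the EBD2, EBD5 and EBD6 libraries.

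**Figure D1:**
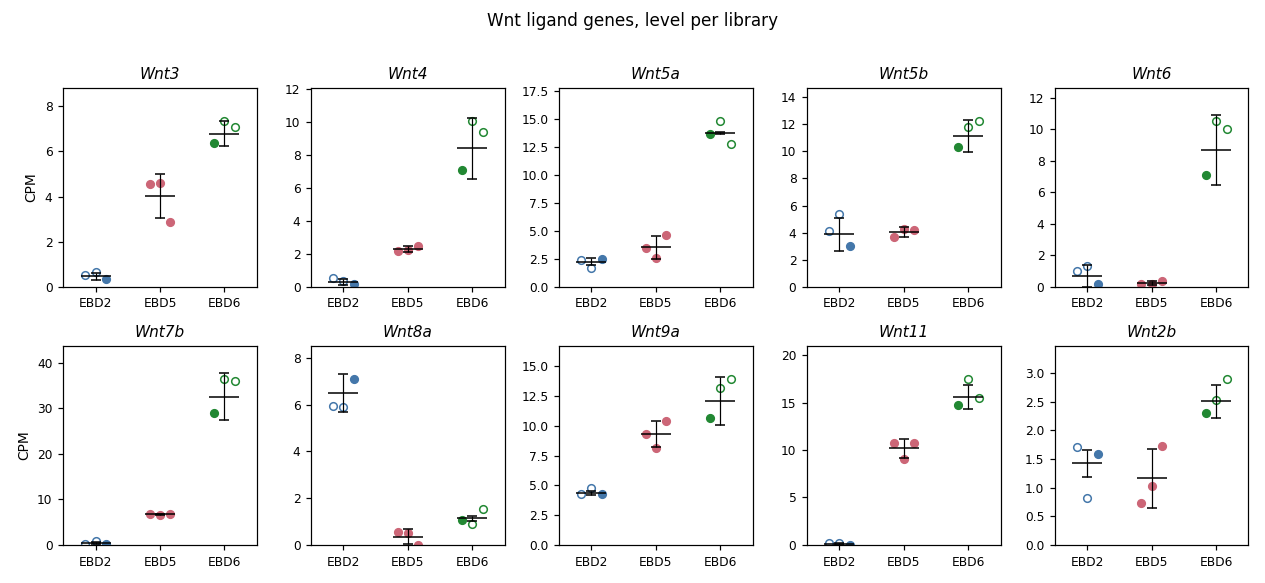
Level in CPM (y axis) of the 10 tested Wnt ligand genes in each library of EBD2, EBD5 and EBD6 (x axis); open circles are the libraries of a near-identical pair counted as 1 sample, and black lines show the mean ± SD over samples. All genes but Wnt8a were highest in EBD6, and Wnt8a was highest in EBD2.

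The summed trophoblast, neuroectoderm and feeder fibroblast markers were also highest in EBD6. The 6 trophoblast markers summed to 39.8 to 41.1 CPM in EBD2, with Cdx2 and Elf5 at 0, 60.8 to 68.5 CPM in EBD5, and 273 to 287 CPM in EBD6. The 5 neuroectoderm markers summed to 144 to 152 CPM in EBD2, 67.6 to 75.8 CPM in EBD5 and 184 to 188 CPM in EBD6. The 6 feeder fibroblast markers summed to 25.2 to 25.7 CPM in EBD2 and 19.6 to 24.4 CPM in EBD5, with Lum at 0 in both, and 36.7 to 47.9 CPM in EBD6. Single markers differed: Sox1 and Pax6 of the neuroectoderm list and Thy1 of the feeder list were highest in EBD2. Dcn of the feeder list was highest in EBD5. The part of any of these cell types in the ligand levels was not tested.

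Receptor genes summed to more than ligand genes in every group, and all 12 had at least 1 TPM throughout. Their summed level, without TMM scaling, was 509 TPM in EBD2, 451 TPM in EBD5 and 610 TPM in EBD6. The lower sum in EBD5 than in EBD2 need not hold on the CPM scale. Fzd7, a Frizzled known from pluripotent stem cells, led each group with 214, 139 and 156 TPM in EBD2, EBD5 and EBD6. In EBD5 against EBD2, 4 receptors were higher, 4 lower and 4 not called. Of the 12, 7 were higher, 2 lower and 3 not called in EBD6 against EBD5, and in EBD6 against EBD2 7 were higher, 1 lower and 4 not called. Of all tested genes, 70.0%, 70.2% and 66.1% were called in these comparisons, in the order given. The receptor calls were near those shares.

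Lrp6, the co-receptor that binds Wnt beside Frizzled, had 164, 159.9 and 163 CPM in EBD2, 354, 372 and 354 CPM in EBD5, and 216, 214 and 213 CPM in EBD6. It was thus highest in EBD5, and no groups overlapped. Its log2 fold change was 1.13 ± 0.06 in EBD5 against EBD2 (edgeR adjusted p = 5.07e-08) and -0.73 ± 0.06 in EBD6 against EBD5 (edgeR adjusted p = 1.12e-06). Its relative Lrp5 moved far less, by -0.17 ± 0.08 on the log2 scale in EBD5 against EBD2 (edgeR adjusted p = 0.0771). Lrp5 was 1.2-fold higher in EBD6 than in EBD5 (edgeR adjusted p = 0.0116), a call lost without EBD5 replicate 3 (edgeR adjusted p = 0.0513) and with DESeq2 (adjusted p = 0.0533). Lrp5 passed the threshold without EBD6 replicate 1 in EBD5 against EBD2 (edgeR adjusted p = 0.0181) and in EBD6 against EBD2 (edgeR adjusted p = 0.0109).

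Fzd10 and Fzd9 were lowest in EBD5. Fzd10 had 23.2, 21.6 and 19.1 CPM in EBD2, 7.31, 6.30 and 5.95 CPM in EBD5, and 15.6, 22.4 and 23.9 CPM in EBD6. Fzd9 had 6.30, 5.57 and 5.32 CPM in EBD2, 1.10, 1.36 and 1.34 CPM in EBD5, and 3.73, 4.71 and 4.74 CPM in EBD6. No EBD5 library of either gene reached the lowest value of the other groups. Fzd10 was 3.25-fold lower in EBD5 than in EBD2 (log2 fold change -1.70 ± 0.20, edgeR adjusted p = 1.81e-05) and 3.14-fold higher in EBD6 than in EBD5 (edgeR adjusted p = 1.76e-05, GC-adjusted log2 value 0.99). Fzd9 was 4.49-fold lower in EBD5 than in EBD2 (log2 fold change -2.17 ± 0.27, edgeR adjusted p = 3.44e-05, GC-adjusted -1.37) and 3.47-fold higher in EBD6 than in EBD5 (edgeR adjusted p = 0.000134, GC-adjusted 0.78).

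Fzd1, Fzd2 and Fzd8 were highest in EBD6. Fzd2 had 38.1, 39.8 and 32.1 CPM in EBD2, 21.7, 23.5 and 24.6 CPM in EBD5, and 80.0, 93.0 and 90.1 CPM in EBD6, with no overlap. Its log2 fold change was 1.91 ± 0.10 in EBD6 against EBD5 (edgeR adjusted p = 8.6e-08, GC-adjusted 1.32) and -0.65 ± 0.12 in EBD5 against EBD2 (edgeR adjusted p = 0.000421). Fzd1 and Fzd8 followed the same order in EBD6 against EBD5, at 3.98-fold (edgeR adjusted p = 6.48e-06) and 2.86-fold (edgeR adjusted p = 1.11e-05). Their GC-adjusted log2 values were 1.3 and 1.09, against fitted values of 1.99 ± 0.20 and 1.52 ± 0.17.

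Fzd5, a Frizzled of the visceral endoderm and yolk sac, and Fzd3, known from axon guidance, were higher in both EBD5 and EBD6 than in EBD2. Fzd5 had 70.0, 69.3 and 68.4 CPM in EBD2, 156, 152 and 136 CPM in EBD5, and 129, 139 and 139 CPM in EBD6. EBD5 and EBD6 overlapped and both lay above EBD2. The log2 fold change of Fzd5 in EBD5 against EBD2 was 1.08 ± 0.07 (edgeR adjusted p = 3.3e-07), and that of Fzd3 was 0.67 ± 0.08 (edgeR adjusted p = 1.62e-05). Fzd7 was 1.31-fold lower in EBD5 than in EBD2 (edgeR adjusted p = 9.24e-05). Its difference between EBD6 and EBD5 was -0.09 ± 0.06 on the log2 scale (edgeR adjusted p = 0.17).

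Fzd6 was 1.62-fold higher in EBD6 than in EBD2 (edgeR adjusted p = 0.000537), a call that held with DESeq2 and with each library left out in turn. The other calls on Fzd4 and Fzd6 were smaller and less stable. Fzd4 was 1.27-fold lower in EBD6 than in EBD5 (edgeR adjusted p = 0.0124), which DESeq2 did not call (adjusted p = 0.0775). Fzd6 was 1.27-fold higher in EBD5 than in EBD2 (edgeR adjusted p = 0.0297), a call lost without EBD2 replicate 3 (edgeR adjusted p = 0.0824) or EBD5 replicate 3 (edgeR adjusted p = 0.0941). It was also 1.27-fold higher in EBD6 than in EBD5 (edgeR adjusted p = 0.0177), a call lost without EBD5 replicate 1 (edgeR adjusted p = 0.0674) or replicate 2 (edgeR adjusted p = 0.0644). DESeq2 made neither of these 2 Fzd6 calls (adjusted p = 0.0951 and 0.147). Fzd5 passed the threshold in EBD6 against EBD5, at -0.18 on the log2 scale, when EBD5 replicate 3 was left out (edgeR adjusted p = 0.037).

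**Figure D2:**
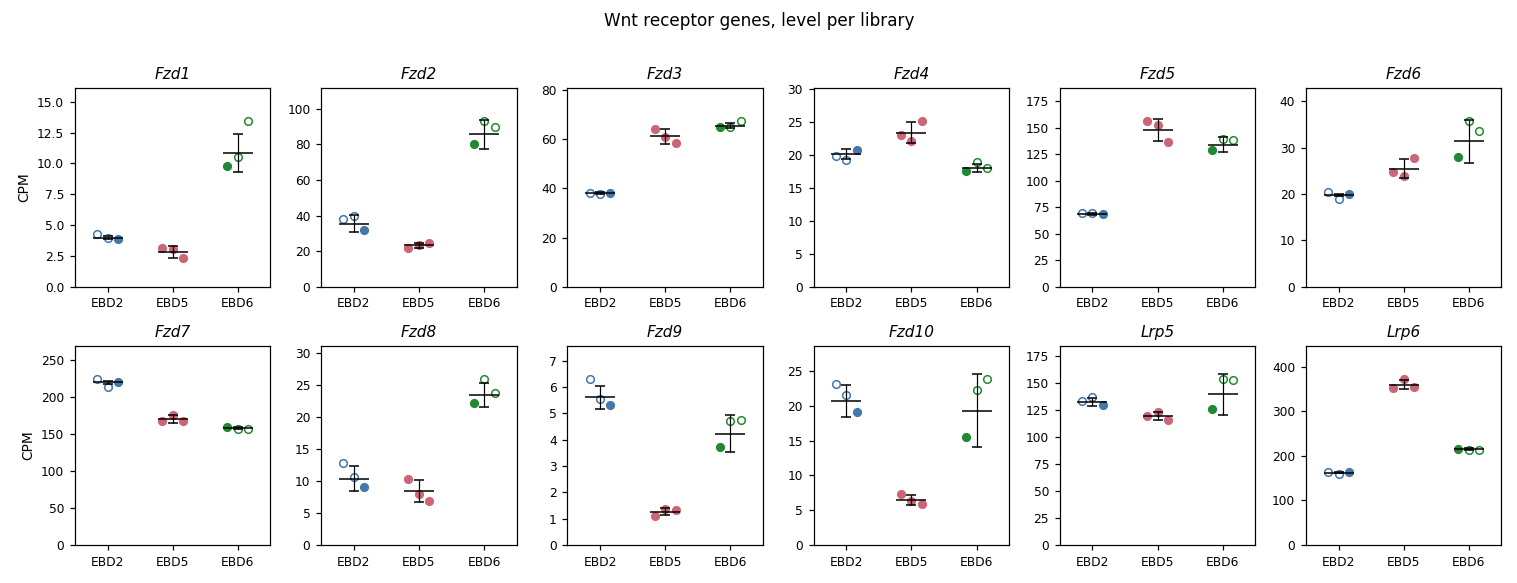
Level in CPM (y axis) of the 10 Frizzled genes and of Lrp5 and Lrp6 in each library of EBD2, EBD5 and EBD6 (x axis); open circles are the libraries of a near-identical pair counted as 1 sample, and black lines show the mean ± SD over samples. Lrp6 was highest in EBD5, Fzd9 and Fzd10 were lowest there, and Fzd1, Fzd2 and Fzd8 were highest in EBD6.

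Secreted antagonists summed to 331 TPM in EBD2, 491 TPM in EBD5 and 308 TPM in EBD6, and Sfrp1 led each group. In EBD5 against EBD2, 3 of the 6 tested antagonists were higher (Dkk1, Sfrp5 and Sfrp1) and 2 were lower (Sfrp4 and Dkk3). None was called higher in EBD6 than in EBD5, and 4 were lower: Sfrp5, Sfrp4, Sfrp1 and Dkk1. In these comparisons 70.0% and 70.2% of all tested genes were called in either direction. Sfrp2 was the one tested gene of all 41 that was called in no comparison.

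Dkk1 (ENSMUSG00000024868, chromosome 19, 30545863 to 30549665, minus strand), which blocks Lrp5 and Lrp6, had no count in any EBD2 library. It had 36.2, 40.5 and 35.7 CPM in EBD5 and 28.6, 25.0 and 27.0 CPM in EBD6. The 3 groups did not overlap. A count of 0 allows up to 3 counts in the group, and on that limit Dkk1 was at least 221-fold higher in EBD5 and at least 156-fold higher in EBD6 than in EBD2. It was 1.37-fold lower in EBD6 than in EBD5 (log2 fold change -0.46 ± 0.10, edgeR adjusted p = 0.00283).

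Sfrp5 (ENSMUSG00000018822, chromosome 19, 42197971 to 42202252, minus strand), a Wnt-binding protein of the anterior visceral endoderm in the mouse, was high in EBD5 and low on either side of it. It had 1.19, 1.80 and 0.532 CPM in EBD2, 27.6, 29.6 and 27.4 CPM in EBD5, and 2.48, 3.26 and 5.54 CPM in EBD6. The lowest EBD5 library lay well above the highest EBD6 library, and EBD6 lay above EBD2. Sfrp5 averaged 1.01 ± 0.683 CPM in EBD2 (SD, n = 2), 28.2 ± 1.22 CPM in EBD5 (SD, n = 3) and 3.44 ± 1.36 CPM in EBD6 (SD, n = 2). Sfrp5 had a log2 fold change of 4.55 ± 0.28 in EBD5 against EBD2 (edgeR adjusted p = 1.67e-07, GC-adjusted 5.40) and -2.83 ± 0.22 in EBD6 against EBD5 (edgeR adjusted p = 7.73e-07, GC-adjusted -3.81).

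Sfrp1 was the most abundant antagonist, at 232 TPM in EBD2, 308 TPM in EBD5 and 182 TPM in EBD6. Its libraries held 229.8, 229 and 231 CPM in EBD2, 348, 376 and 369.6 CPM in EBD5, and 182, 172 and 175 CPM in EBD6. EBD5 was highest and EBD6 lowest, without overlap. Sfrp1 had a log2 fold change of 0.65 ± 0.06 in EBD5 against EBD2 (edgeR adjusted p = 4.45e-06), -1.02 ± 0.06 in EBD6 against EBD5 (edgeR adjusted p = 1.92e-07) and -0.37 ± 0.07 in EBD6 against EBD2 (edgeR adjusted p = 0.000548).

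Sfrp4, another Wnt-binding protein, was lower in EBD5 than in EBD2 and lower again in EBD6. It had 26.9, 27.7 and 26.6 CPM in EBD2, 21.2, 17.2 and 14.8 CPM in EBD5, and 5.86, 4.98 and 5.87 CPM in EBD6, with no overlap. It was 1.54-fold lower in EBD5 than in EBD2 (edgeR adjusted p = 0.00227) and 3.14-fold lower in EBD6 than in EBD5 (log2 fold change -1.65 ± 0.17, edgeR adjusted p = 6.12e-06). Sfrp2 stood at 28.4 to 29.7 CPM in EBD2, 29.3 to 30.7 CPM in EBD5 and 24.1 to 28.2 CPM in EBD6, and its log2 fold change in EBD6 against EBD5 was -0.15 ± 0.10 (edgeR adjusted p = 0.193). Dkk3, a divergent member of its family, was 1.82-fold lower in EBD5 than in EBD2 (log2 fold change -0.86 ± 0.23, edgeR adjusted p = 0.00606), which DESeq2 did not call (adjusted p = 0.0666). Between EBD6 and EBD5, Dkk3 differed by 0.54 ± 0.23 (edgeR adjusted p = 0.0528), and it passed the threshold without EBD6 replicate 1 (edgeR adjusted p = 0.0165) or replicate 2 (edgeR adjusted p = 0.0411).

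The summed levels of 3 endoderm marker lists were highest in EBD5, as were Dkk1, Sfrp5 and Sfrp1, but single markers differed. Of the 8 visceral endoderm markers summed above, 4 were highest in EBD5 (Apoa1, Apoa4, Cubn and Hnf4a) and 4 in EBD6 (Afp, Ttr, Amn and Rbp4). The 7 primitive and parietal endoderm markers summed to 225 to 230 CPM in EBD2, 2039 to 2118 CPM in EBD5 and 1599 to 1729 CPM in EBD6, and 3 of them (Gata4, Sox17 and Lama1) were highest in EBD6. The 5 anterior visceral endoderm markers summed to 383 to 411 CPM in EBD2, 525 to 550 CPM in EBD5 and 224 to 228 CPM in EBD6, with none at 0, and 1 of them, Lefty1, was highest in EBD2. In EBD2 most of that sum came from Otx2 (237 to 257 CPM), which is also on the epiblast list, and from Lefty1 (122 to 130 CPM). Cer1 had 1 count over the EBD2 libraries and Lhx1 at most 0.532 CPM, against 23.0 to 26.7 CPM and 124 to 146 CPM in EBD5. The 4 epiblast markers also summed highest in EBD5 (794 to 873, 900 to 941 and 427 to 435 CPM in EBD2, EBD5 and EBD6). So did the 6 primitive streak and nascent mesoderm markers (31.2 to 38.8, 145 to 151 and 103 to 114 CPM), with Mesp1 at 0 and Eomes alone at 132 to 137 CPM in EBD5. Of these, Pou3f1, Dnmt3b and Tbx6 were highest in EBD2, and T, Mixl1 and Mesp1 in EBD6. The part of any of these cell types in the antagonist levels was not tested.

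Without TMM scaling, genes of the R-spondin branch summed to 169 TPM in EBD2, 158 TPM in EBD5 and 187 TPM in EBD6. Most of it came from the R-spondin receptor Lgr4, which was lowest in EBD5 in TPM but highest there in CPM. The order of these sums need not hold on the CPM scale. Members of this branch moved in opposite directions. In EBD5 against EBD2, 4 of the 6 tested genes were higher, 1 was lower and 1 was not called. There were 2 higher, 1 lower and 3 not called in EBD6 against EBD5, and in EBD6 against EBD2, 4 were higher, 1 lower and 1 not called. Of all tested genes, 70.0%, 70.2% and 66.1% were called in these comparisons, in the order given.

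The ligands Rspo1 and Rspo3 exchanged rank. Rspo1 had 17.9, 19.7 and 14.0 CPM in EBD2, 6.03, 4.94 and 4.80 CPM in EBD5, and 1.77, 3.08 and 3.37 CPM in EBD6. Rspo3 had 1.36, 0.983 and 0.354 CPM in EBD2, 11.69, 10.7 and 15.4 CPM in EBD5, and 23.4, 22.4 and 20.5 CPM in EBD6. Per length, Rspo1 was the higher of the pair in EBD2, at 37.4 ± 8.87 TPM against 1.10 ± 0.861 TPM for Rspo3 (SD, n = 2 each). In EBD6 it was the lower, at 5.81 ± 2.58 TPM against 32.4 ± 0.873 TPM for Rspo3 (SD, n = 2 each).

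Rspo3 was 13.6-fold higher in EBD5 than in EBD2 (log2 fold change 3.76 ± 0.32, edgeR adjusted p = 1.53e-06) and 1.79-fold higher in EBD6 than in EBD5 (0.84 ± 0.18, edgeR adjusted p = 0.00139). Rspo1 was 3.21-fold lower in EBD5 than in EBD2 (-1.68 ± 0.22, edgeR adjusted p = 4.62e-05, GC-adjusted -0.83) and 1.82-fold lower in EBD6 than in EBD5 (-0.87 ± 0.27, edgeR adjusted p = 0.0136, GC-adjusted -1.86). The fall of Rspo1 in EBD6 was not called without EBD5 replicate 1 (log2 fold change -0.78, edgeR adjusted p = 0.0536).

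Rnf43, a ubiquitin ligase that removes Frizzleds and is itself a Wnt target in the mouse intestine, had 1.53, 0.819 and 0.177 CPM in EBD2, 8.40, 8.0 and 10.7 CPM in EBD5, and 8.70, 9.87 and 9.80 CPM in EBD6. EBD5 and EBD6 both lay above EBD2 and overlapped each other. Rnf43 was 10.5-fold higher in EBD5 than in EBD2 (log2 fold change 3.39 ± 0.37, edgeR adjusted p = 1.15e-05), or 4.10 on the log2 scale without EBD2 replicate 1. In EBD6 against EBD2 its log2 fold change was 3.47 ± 0.37 (edgeR adjusted p = 9.98e-06), or 4.18 without EBD2 replicate 1. Its relative Znrf3 was 1.2-fold higher in EBD5 than in EBD2 (edgeR adjusted p = 0.0418), a call that DESeq2 did not make (adjusted p = 0.114). Leaving out any EBD5 library, or EBD2 replicate 1 or 3, ended the Znrf3 call as well, with edgeR adjusted p between 0.0618 and 0.194. Per length and without TMM scaling, Znrf3 had 18.5 TPM in EBD2 and 18.9 TPM in EBD5. Between EBD6 and EBD5, Znrf3 differed by 0.14 ± 0.10 (edgeR adjusted p = 0.205), and it passed the threshold without EBD6 replicate 1 (edgeR adjusted p = 0.0157).

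Lgr5, the R-spondin receptor known as a stem cell marker of the mouse intestine, was barely counted outside EBD6, with 3 counts over EBD2, 5 over EBD5 and 93 over EBD6. Its levels in EBD6 were 1.95, 3.17 and 3.78 CPM, against 0.548, 0.340 and 0 CPM in EBD5. The log2 fold change in EBD6 against EBD5 was 3.26 ± 0.61 (edgeR adjusted p = 0.000602), or 3.95 without EBD5 replicate 1. Against EBD2 the ratio of counts per depth was 18.8 (95% counting interval 6.22 to 92.6), and all 3 EBD2 counts came from replicate 2. Lgr4 held 143, 144 and 147 CPM in EBD2, 160.2, 169 and 179 CPM in EBD5, and 152, 153 and 151 CPM in EBD6. Its one call was a 1.15-fold higher level in EBD5 than in EBD2 (edgeR adjusted p = 0.0119), and in EBD6 against EBD5 it passed the threshold without EBD5 replicate 1 (edgeR adjusted p = 0.0397). Per length and without TMM scaling, Lgr4 had 109 TPM in EBD2 and 106 TPM in EBD5, the reverse of the called direction.

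**Figure D3:**
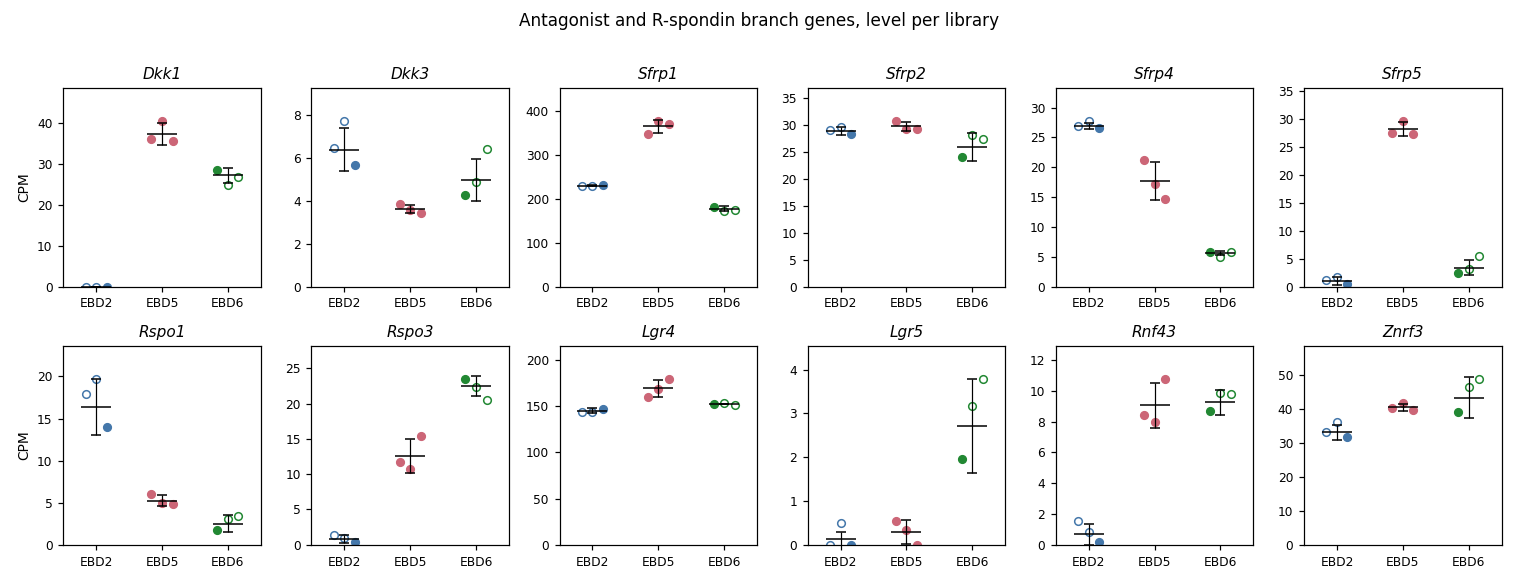
Level in CPM (y axis) of the tested antagonist genes and R-spondin branch genes in each library of EBD2, EBD5 and EBD6 (x axis); open circles are the libraries of a near-identical pair counted as 1 sample, and black lines show the mean ± SD over samples. Sfrp5 was high in EBD5 alone, Dkk1 was at 0 in EBD2, and Rspo1 and Rspo3 ran in opposite directions.

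The TCF/LEF factors bind DNA and recruit beta-catenin. Their summed level was 493 TPM in EBD2, 281 TPM in EBD5 and 359 TPM in EBD6, and the leading factor was Tcf7 in EBD2 and EBD5 and Tcf7l1 in EBD6. EBD5 had 1 of the 4 higher and 3 lower than EBD2, with Tcf7l1 among the lower only before GC adjustment. There were 2 higher, 1 lower and 1 not called in EBD6 against EBD5, and in EBD6 against EBD2, 1 was higher, 2 were lower and 1 was not called. Of all tested genes, 70.0%, 70.2% and 66.1% were called in these comparisons, in the order given.

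Tcf7, which encodes TCF1, was lower in EBD5 than in EBD2 and lower again in EBD6. It had 154, 158 and 164 CPM in EBD2, 87.0, 107 and 94.4 CPM in EBD5, and 54.7, 62.1 and 62.7 CPM in EBD6, with no overlap. The log2 fold change was -0.74 ± 0.09 in EBD5 against EBD2 (edgeR adjusted p = 1.72e-05) and -0.68 ± 0.09 in EBD6 against EBD5 (edgeR adjusted p = 5.45e-05). Tcf7l2, which encodes TCF4, moved the other way, with 25.9, 27.0 and 24.3 CPM in EBD2, 76.0, 71.8 and 73.5 CPM in EBD5, and 66.9, 69.6 and 63.0 CPM in EBD6. EBD5 and EBD6 both lay above EBD2. It was 2.85-fold higher in EBD5 than in EBD2 (log2 fold change 1.51 ± 0.08, edgeR adjusted p = 4.63e-08). Tcf7l2 differed by -0.13 ± 0.07 between EBD6 and EBD5 (edgeR adjusted p = 0.104), and the difference passed the threshold without EBD6 replicate 2 (edgeR adjusted p = 0.0492).

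Lef1, itself a Wnt target in many tissues, had 60.1, 62.7 and 57.2 CPM in EBD2, 29.96, 27.2 and 27.8 CPM in EBD5, and 31.8, 34.8 and 34.9 CPM in EBD6. It was 2.13-fold lower in EBD5 than in EBD2 (log2 fold change -1.09 ± 0.09, edgeR adjusted p = 1.08e-06) and 1.77-fold lower in EBD6 than in EBD2 (edgeR adjusted p = 1.17e-05). The 1.2-fold higher level in EBD6 than in EBD5 (edgeR adjusted p = 0.0203) was not called without EBD5 replicate 2 (edgeR adjusted p = 0.0841) or replicate 3 (edgeR adjusted p = 0.0586), or with DESeq2 (adjusted p = 0.197).

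Tcf7l1, which encodes TCF3, a repressor of Wnt targets in mouse embryonic stem cells, had 172, 163 and 157 CPM in EBD2, 105, 122 and 101 CPM in EBD5, and 189.9, 177 and 175 CPM in EBD6. EBD5 lay below both other groups. The log2 fold change was -0.59 ± 0.08 in EBD5 against EBD2 (edgeR adjusted p = 5.88e-05) and 0.75 ± 0.08 in EBD6 against EBD5 (edgeR adjusted p = 7.57e-06). Both changed sign when GC and length were taken into account, to 0.06 and -0.16. In EBD6 against EBD2, Tcf7l1 differed by 0.16 ± 0.08 (edgeR adjusted p = 0.103), and it passed the threshold without EBD5 replicate 2 (edgeR adjusted p = 0.0498).

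The 3 genes grouped here as feedback genes fell together in EBD5 against EBD2 and rose together in EBD6 against EBD5. Their summed level was 72.9 TPM in EBD2, 19.7 TPM in EBD5 and 66.4 TPM in EBD6. Of the other genes described above as Wnt targets, Lef1 was also lower in EBD5 than in EBD2, whereas Rnf43 was higher. Axin2 (ENSMUSG00000000142, chromosome 11, 108920349 to 108950783, plus strand) encodes a scaffold of the complex that degrades beta-catenin. It had 43.6, 41.8 and 37.4 CPM in EBD2, 17.0, 16.7 and 19.2 CPM in EBD5, and 35.9, 45.5 and 47.5 CPM in EBD6. EBD5 lay below both other groups, which overlapped each other. The level was 17.6 ± 1.37 CPM in EBD5 (SD, n = 3) and 40.0 ± 3.74 CPM in EBD2 (SD, n = 2), a 2.32-fold lower level in EBD5 (log2 fold change -1.22 ± 0.13, edgeR adjusted p = 1.24e-05). In EBD6 it was 41.2 ± 7.51 CPM (SD, n = 2), 2.43-fold above EBD5 (1.28 ± 0.13, edgeR adjusted p = 6.16e-06, GC-adjusted 0.76). EBD6 and EBD2 differed by 0.07 ± 0.13 (edgeR adjusted p = 0.665).

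Notum, a secreted enzyme that strips the lipid from Wnts, had 12.3, 11.8 and 13.8 CPM in EBD2, 0.548, 0.681 and 1.73 CPM in EBD5, and 5.86, 5.89 and 5.70 CPM in EBD6. The groups did not overlap. It was 13.2-fold lower in EBD5 than in EBD2 (log2 fold change -3.72 ± 0.30, edgeR adjusted p = 1.2e-06, GC-adjusted -2.92), or -4.36 without EBD5 replicate 3. It was 6.01-fold higher in EBD6 than in EBD5 (2.59 ± 0.33, edgeR adjusted p = 3.45e-05, GC-adjusted 1.57), or 3.22 without EBD5 replicate 3. In EBD6 it stayed 2.2-fold below EBD2 (edgeR adjusted p = 0.000974). Notum shares 708 exon bases with the opposite-strand gene Notumos, which had 60.8 counts over all libraries, against 406 for Notum, and strand use in the counting is not given in the sources used here.

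Nkd1, which binds Dishevelled inside the cell, had 18.05, 17.0 and 17.7 CPM in EBD2, 9.14, 8.51 and 5.95 CPM in EBD5, and 20.8, 22.7 and 25.8 CPM in EBD6. EBD5 was lowest and EBD6 highest, without overlap. It was 2.25-fold lower in EBD5 than in EBD2 (log2 fold change -1.17 ± 0.17, edgeR adjusted p = 9.55e-05) and 2.94-fold higher in EBD6 than in EBD5 (1.55 ± 0.16, edgeR adjusted p = 6.79e-06). The 1.3-fold higher level in EBD6 than in EBD2 (edgeR adjusted p = 0.0444) was lost with DESeq2 (adjusted p = 0.23). It was also lost without EBD2 replicate 2 or 3, EBD5 replicate 1 or EBD6 replicate 3, with edgeR adjusted p between 0.0573 and 0.119.

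**Figure D4:**
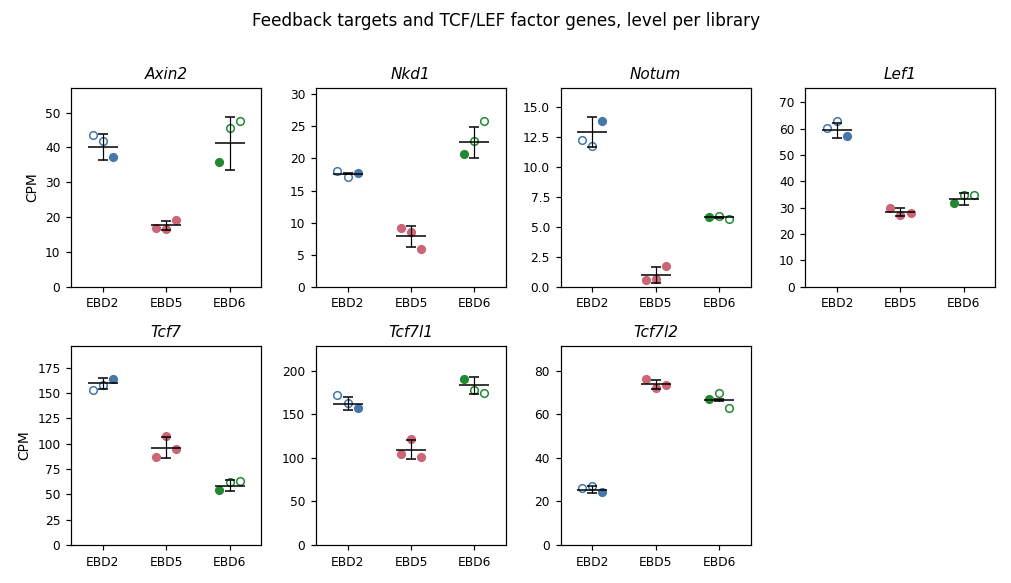
Level in CPM (y axis) of the 3 feedback genes and the 4 TCF/LEF factor genes in each library of EBD2, EBD5 and EBD6 (x axis); open circles are the libraries of a near-identical pair counted as 1 sample, and black lines show the mean ± SD over samples. Axin2, Nkd1 and Notum were lowest in EBD5, and Tcf7l2 was lowest in EBD2.

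Promoters are shown for the feedback gene Axin2, for the EBD5-high antagonists (Sfrp5 and Dkk1), and for a ligand with a TCF/LEF motif in its window (Wnt11). The sequences are RefSeq's on GRCm38.p6, the build also called mm10. Windows of 250 bases that end at the base before the transcript start were searched on both strands for the TCF/LEF core motifs CTTTGAA and CTTTGAT, which share their first 6 letters. A match on one strand can overlap one on the other. Capitals mark a match, and ATCAAAG is CTTTGAT read on the other strand. Coordinates are chr11:108920099-108920348 (plus strand) for Axin2, chr19:42202253-42202502 (minus strand) for Sfrp5, chr7:98834862-98835111 (plus strand) for Wnt11 and chr19:30549597-30549623 (minus strand) for the 27 bases around the Dkk1 match.
Axin2: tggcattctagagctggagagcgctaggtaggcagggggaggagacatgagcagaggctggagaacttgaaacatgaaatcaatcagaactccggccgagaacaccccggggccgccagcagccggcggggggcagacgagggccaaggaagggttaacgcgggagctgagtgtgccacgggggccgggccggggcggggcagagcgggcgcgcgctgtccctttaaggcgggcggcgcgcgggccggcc
Sfrp5: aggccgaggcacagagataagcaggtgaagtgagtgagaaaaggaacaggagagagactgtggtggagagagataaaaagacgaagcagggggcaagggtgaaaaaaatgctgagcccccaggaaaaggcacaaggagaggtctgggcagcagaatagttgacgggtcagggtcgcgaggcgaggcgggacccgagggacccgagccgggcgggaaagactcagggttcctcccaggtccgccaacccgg
Wnt11: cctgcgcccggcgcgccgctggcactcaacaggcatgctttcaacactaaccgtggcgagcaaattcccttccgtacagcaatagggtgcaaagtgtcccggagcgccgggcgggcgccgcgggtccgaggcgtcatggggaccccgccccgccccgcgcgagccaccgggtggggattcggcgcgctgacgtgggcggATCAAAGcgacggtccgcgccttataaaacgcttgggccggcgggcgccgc
Dkk1: cctcccaaagCTTTGAAatcccatccc
In GENCODE M21 the Dkk1 gene starts at 30549665, so the stretch shown lies inside the annotated gene. The Axin2 and Sfrp5 windows hold no match. The match in Wnt11 starts 51 bases before the transcript start and that in Dkk1 117 bases before it. Of the 44 windows found for 35 of the 54 genes, 3 held a match (6.82%), the third in one of the windows of Wnt5b, against 2457 of all 32851 windows (7.48%). A match is a description of letters only, and the lack of one says nothing about TCF/LEF binding elsewhere.

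Further Wnt pathway genes, covering secretion, co-receptors, the degradation complex, nuclear partners, polarity and known targets, numbered 82, of which 72 were tested. EBD5 had 31 of them higher and 24 lower than EBD2. In EBD6 against EBD5, 43 were higher and 12 lower, and in EBD6 against EBD2, 43 were higher and 9 lower. These counts can be read against the shares of all genes given above, as 43.1% and 33.3%, 59.7% and 16.7%, and 59.7% and 12.5% of those tested.

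Frzb, a further Wnt-binding protein of the Sfrp family, had 0.170, 0.491 and 0 CPM in EBD2, 6.03, 5.96 and 3.45 CPM in EBD5, and 28.0, 29.5 and 30.7 CPM in EBD6. Unlike Sfrp5, it was highest in EBD6. Its log2 fold change was 4.42 ± 0.51 in EBD5 against EBD2 (edgeR adjusted p = 1.63e-05). Cer1, one of the anterior visceral endoderm markers above, was highest in EBD5, as Sfrp5 was. It had 1, 400 and 292 counts over the EBD2, EBD5 and EBD6 libraries. The log2 fold change of Cer1 in EBD6 against EBD5 was -1.25 ± 0.15 (edgeR adjusted p = 2.65e-05). Ror2, a co-receptor for Wnt5a, had 6.94, 6.13 and 4.41 CPM in EBD5, against 22.8, 24.6 and 19.3 CPM in EBD2 (log2 fold change -1.91 ± 0.22, edgeR adjusted p = 1.51e-05, GC-adjusted -1.18). Aes, a corepressor relative that binds TCF/LEF partners, was 2.24-fold lower in EBD5 than in EBD2 (edgeR adjusted p = 1.04e-06). The 3 largest rises in EBD6 against EBD5 were in Cdx2, Sp5 and T, known Wnt targets in the mouse posterior embryo. Sp5 had 13.5, 15.2 and 16.6 CPM in EBD6, against 0.914, 1.02 and 0.768 CPM in EBD5 (log2 fold change 4.04 ± 0.25, edgeR adjusted p = 1.77e-07, GC-adjusted 3.03). Over the EBD2, EBD5 and EBD6 libraries, Cdx2 had 0, 11 and 465 counts and Sp5 had 1, 15 and 451. T had 46, 29 and 802 counts. Cdx2 was called higher in EBD5 than in EBD2 (edgeR adjusted p = 0.00564), and Sp5 had more counts in EBD5 than in EBD2. Both thus differed from the 3 feedback genes, which were lower in EBD5 than in EBD2. Cdx2 is also one of the 6 trophoblast markers above.

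Removal of GC content and length bin medians altered the size of many of these fold changes but seldom their direction. After the median of each bin of GC content and length was taken off, 17 of the 17 higher calls and 13 of the 14 lower calls in EBD5 against EBD2 kept their direction. In EBD6 against EBD5, 21 of the 24 higher calls and 8 of the 8 lower calls kept it. The exceptions were Tcf7l1 in both comparisons and Wnt11 and Wnt9a in EBD6 against EBD5. In EBD6 against EBD2 all 24 higher and 8 lower calls kept their direction.

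**Figure D5:**
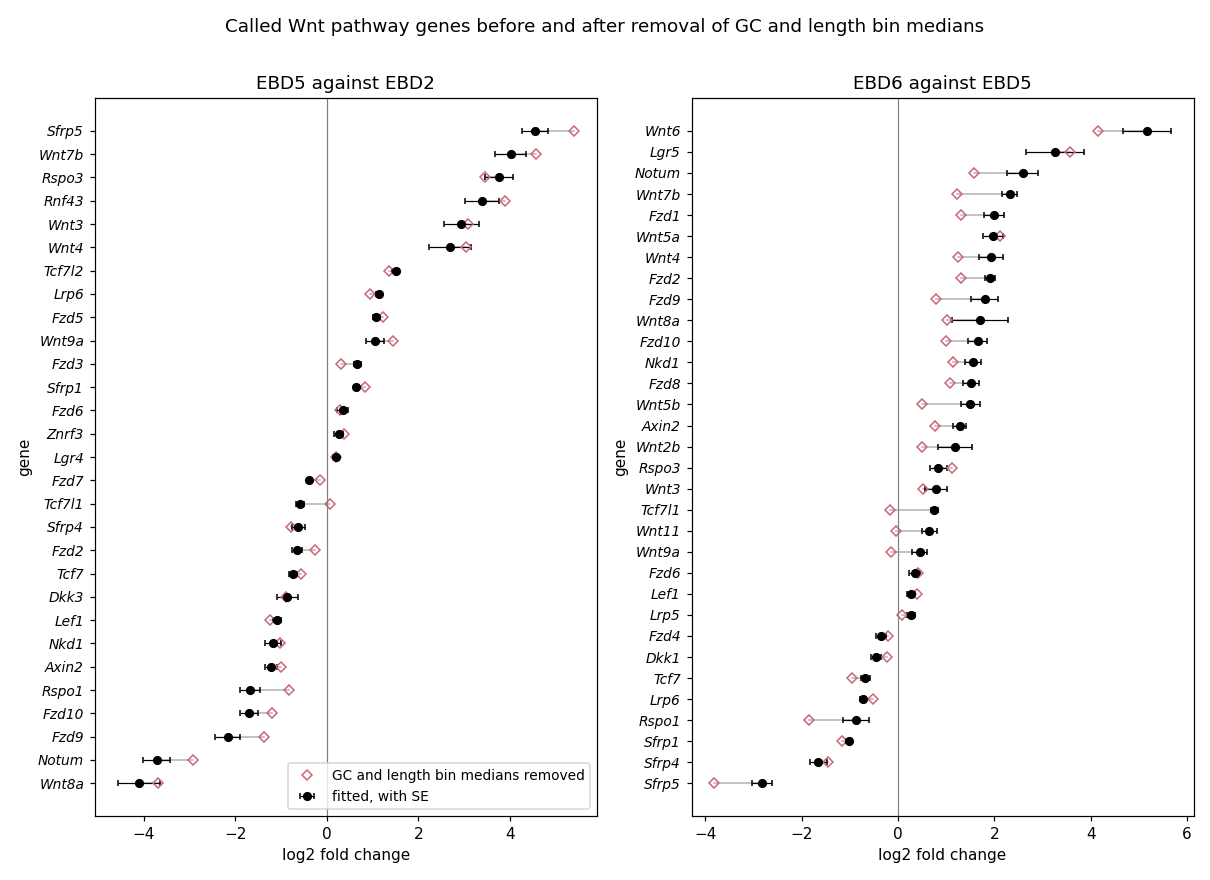
Log2 fold change (x axis) of each called Wnt pathway gene (y axis) in EBD5 against EBD2 and in EBD6 against EBD5, as fitted (black points with SE bars) and after removal of the median of its GC content and length bin (diamonds); Dkk1 and Wnt11, with no more than 3 counts in EBD2, are left out of EBD5 against EBD2. In EBD6 against EBD5 the diamonds of Tcf7l1, Wnt9a and Wnt11 lie on the other side of 0.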

How the data were processed

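The 9 libraries of polyadenylated RNA fall into 3 groups of 3. The submitters' processing notes list the build mm10 and the tools cutadapt (1.18), STAR (2.7.10a), RSEM (1.3.30), edgeR (3.40.2) and DESeq2 (1.38.3), without a role or an order. Which annotation release and strand setting were used is not given in the sources used here. Antisense and overlapping genes may therefore be mixed, and 11 of the 54 genes share exon bases with a gene on the opposite strand. The authors deposited expected counts per gene, which are estimates that need not be whole and carry no scaling. Whole values made up 90.9% to 94.6% of each library, and all values were rounded before testing. The EBD6 libraries were also deposited in a second table, identical in all 54233 rows. One row, MR3, names no gene, took at most 0.0157% of counts and was left out. GENCODE M21 gave symbols, positions and exon lengths and held 99.9% of the IDs.

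Pairs of libraries within a group were set against each other by a chi-square test of counts, using genes with 20 counts or more. The pair EBD2 replicates 1 and 2 had 0.949 chi-square per gene and the pair EBD6 replicates 2 and 3 had 1.01. Neither pair differed beyond sampling noise, so each was summed and used as 1 sample, the mean of 2 libraries in any mean ± SD. The next closest pair, EBD5 replicates 1 and 3, had 1.21 chi-square per gene and did differ (chi-square p = 5.85e-66), so it was kept apart. Summing that pair too left 122 of 123 results the same and ended the Znrf3 call in EBD5 against EBD2 (edgeR adjusted p = 0.0605). After filterByExpr and TMM scaling, edgeR 4.0.16 (R 4.3.3) fitted the 3 groups together with no covariate. The fit had 4 residual degrees of freedom, and the common biological coefficient of variation was 6.72%. An SE is the log2 fold change divided by the square root of F. TPM used the union of exons and no TMM scaling. Limits at a count of 0 use 3 counts, and intervals are 95%. The test was checked on simulated counts.

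Alternatives were DESeq2 1.42.0, DESeq2's size factors in edgeR, limma-voom (limma 3.58.1), testing without a filter or with at least 5 CPM in 3 libraries, fitting the compared groups alone, a test against a fold of 1.5, all 9 libraries kept apart with or without a replicate block, summing EBD5 replicates 1 and 3, taking EBD6 from the second table, removing GC and length bin medians, and omitting each library in turn. The genes, lists, tests and alternatives were chosen with earlier results of these data known. All 54 genes may be named, and of the other pathway genes up to 3 per direction and comparison, those with the largest called change.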

Additional observations from a re-analysis of the deposited data

How the results depend on the processing

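Over the 123 log2 fold changes of the 41 tested genes, DESeq2 ended 14 calls and gained 0. Under it 5 of the 10 ligands were called higher in EBD6 than EBD5, and the counts over all members stayed within 1.5 times. Removal of GC and length bin medians turned 4 called values: Tcf7l1 to 0.063 (from -0.59) in EBD5 against EBD2, and Tcf7l1 to -0.16 (from 0.75), Wnt11 to -0.039 (from 0.65) and Wnt9a to -0.15 (from 0.45) in EBD6 against EBD5. A test against a fold of 1.5 ended 30 calls, since it asks for more than a difference from 0. Under it 9 genes were lower in EBD5 than EBD2 (14 without it), and 15 were higher and 4 lower in EBD6 than EBD5 (24 and 8). Of the other pathway genes, it left 18 higher and 9 lower in EBD5 than EBD2 (31 and 24), 19 higher and 6 lower in EBD6 than EBD5 (43 and 12), and 3 lower in EBD6 than EBD2 (9). With each library left out in turn, the counts ran from 15 to 17 higher and 14 to 15 lower in EBD5 against EBD2, 21 to 26 and 8 to 9 in EBD6 against EBD5, and 22 to 25 and 8 in EBD6 against EBD2. The labels give the same replicate numbers in each group. Same-numbered libraries deviated together with correlations from -0.198 to 0.135, and differently numbered ones with correlations from -0.202 to 0.240. Deviations from a mean of 3 libraries depend on each other, so this cannot show whether same-numbered libraries share a culture or batch. With the replicate number as a block over 9 libraries, 17 genes were higher and 15 lower in EBD5 against EBD2, 24 and 10 in EBD6 against EBD5, and 24 and 8 in EBD6 against EBD2. Depth limits the 13 untested genes, which had 8 to 55 counts over all libraries.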
